A study of Mus musculus with 12 samples.

Results

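The genes described here encode the machinery of cell division: the cyclins and kinases that start mitosis, the spindle checkpoint, the kinetochore, the spindle and its kinesins, condensed chromosomes and cytokinesis. The set was given as 41 gene symbols listed by function. The list uses no measured value as a criterion, although it was drawn up with earlier results of these data known. Probe sets annotated to a symbol, current or older, were taken, and the probe set with the highest mean log2 intensity over all arrays stood for the gene. Of the 41 symbols 40 had a probe set and make up 40 of the 12393 genes measured. Ccnb1 had none and was not analysed here.

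The cells were bipotential mouse embryonic liver (BMEL) lines, immortal epithelial cells that can be led towards hepatocyte or bile duct features by the way they are grown. The independently isolated lines 9A1 and 14B3 both came from embryonic day 14 liver of CBA/J x C57Bl/6J mice, and no other genetic change is given for them. Each line was grown in basal culture, as aggregates for 5 days, and in Matrigel, a basement membrane gel. The Matrigel cultures are labelled 10 days, except Matrigel_14B3 replicate 1, which is labelled 5 days. RNA was hybridised to 430A arrays, with 2 arrays for each line and culture, so that each culture had 4 arrays and each line 6. Each line is a single isolate, so a difference between lines is a difference between these 2 isolates.

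Mitotic genes are transcribed late in the cell cycle, in G2 and M phase, and many of their products are destroyed as mitosis ends. Their promoters are known targets of the DREAM complex, which represses them in resting cells, and of the MuvB, B-Myb and FoxM1 complexes, which activate them in dividing cells. Both kinds of complex are known to act through a short sequence near the start site, the cell cycle homology region, often with a CCAAT box upstream that binds NF-Y. The fetal liver is a tissue of rapid division, and hepatocytes leave the cell cycle as they mature.

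The promoters are shown because the genes moved together and because this letter pattern was in most of them. RefSeq promoter windows on build GRCm38.p6, from 250 bases before to 50 after the annotated start, were found for 32 of the 40 genes. Cdk1, Cdc20 and Ube2c hold the letters TTTGAA near the start, Birc5 fell as far without them, and Pttg1 is the gene whose level followed the others least. Capitals mark these letters and CCAAT, each read on either strand, so that ATTGG is CCAAT and TTCAAA is TTTGAA on the other strand. TTCGAA reads the same on both strands and was counted once, neighbouring motifs may share bases, and each sequence runs from 5′ to 3′.
Cdk1, chr10:69352863-69353162, minus strand: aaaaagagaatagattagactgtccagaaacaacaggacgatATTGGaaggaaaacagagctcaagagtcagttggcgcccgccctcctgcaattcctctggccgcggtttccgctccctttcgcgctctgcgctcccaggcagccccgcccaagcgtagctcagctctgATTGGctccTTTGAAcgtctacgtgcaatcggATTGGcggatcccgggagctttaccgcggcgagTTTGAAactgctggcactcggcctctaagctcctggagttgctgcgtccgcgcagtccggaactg
Cdc20, chr4:118437294-118437593, minus strand: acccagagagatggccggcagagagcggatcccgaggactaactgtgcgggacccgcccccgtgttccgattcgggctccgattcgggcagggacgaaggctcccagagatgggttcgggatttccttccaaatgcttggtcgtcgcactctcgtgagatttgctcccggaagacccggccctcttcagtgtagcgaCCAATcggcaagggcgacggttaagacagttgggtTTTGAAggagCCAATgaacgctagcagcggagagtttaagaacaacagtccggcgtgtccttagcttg
Ube2c, chr2:164769679-164769978, plus strand: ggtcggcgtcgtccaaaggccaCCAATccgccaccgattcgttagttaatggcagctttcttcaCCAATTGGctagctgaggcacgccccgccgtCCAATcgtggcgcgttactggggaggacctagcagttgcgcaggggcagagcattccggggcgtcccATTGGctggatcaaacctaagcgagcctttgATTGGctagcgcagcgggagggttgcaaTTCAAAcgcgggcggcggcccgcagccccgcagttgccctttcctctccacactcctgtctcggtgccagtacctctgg
Birc5, chr11:117848987-117849286, plus strand: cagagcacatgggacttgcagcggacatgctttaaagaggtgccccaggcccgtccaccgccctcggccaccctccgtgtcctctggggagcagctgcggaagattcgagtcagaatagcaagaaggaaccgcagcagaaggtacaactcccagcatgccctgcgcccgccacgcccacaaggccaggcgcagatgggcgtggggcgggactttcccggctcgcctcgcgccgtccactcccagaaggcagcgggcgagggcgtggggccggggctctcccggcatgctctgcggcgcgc
Pttg1, chr11:43425932-43426231, minus strand: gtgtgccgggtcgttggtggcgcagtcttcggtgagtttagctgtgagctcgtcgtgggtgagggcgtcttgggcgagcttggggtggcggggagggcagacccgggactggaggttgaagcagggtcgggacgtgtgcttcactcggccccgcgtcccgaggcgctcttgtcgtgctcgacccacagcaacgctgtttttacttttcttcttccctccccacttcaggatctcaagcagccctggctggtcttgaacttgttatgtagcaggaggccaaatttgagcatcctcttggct

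TTTGAA or TTCGAA was present in 25 of the 32 windows (78.1%), against 17.3% of the 9882 array genes with a window and 21.7% of all 27025 genes with one. CCAAT was present in 24 of the 32 (75.0%), against 42.3% of the array genes. Both were present in 22 (68.8%), against 6.87% of the array genes. The first of the letters lay within 50 bases of the annotated start in 23 of the 32 genes, against 4.52% of the array genes. Genes of DNA replication, which act earlier in the cycle, had TTTGAA or TTCGAA in 5 of 27 windows (18.5%) and CCAAT in 63.0%. The 7 genes without TTTGAA or TTCGAA in the window were Birc5, Cenpe, Mad2l1, Ncaph, Nek2, Nuf2 and Pttg1. They included Birc5, with one of the largest falls of the set in aggregates (a log2 difference of -4.04), and Pttg1, with the smallest (-0.37). The median log2 difference in aggregates was -2.90 for the 25 genes with the letters and -2.32 for the 7 without. A match is a description of the letters and no evidence of binding, and no match says only that they are not in this window.

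**Figure D1:**
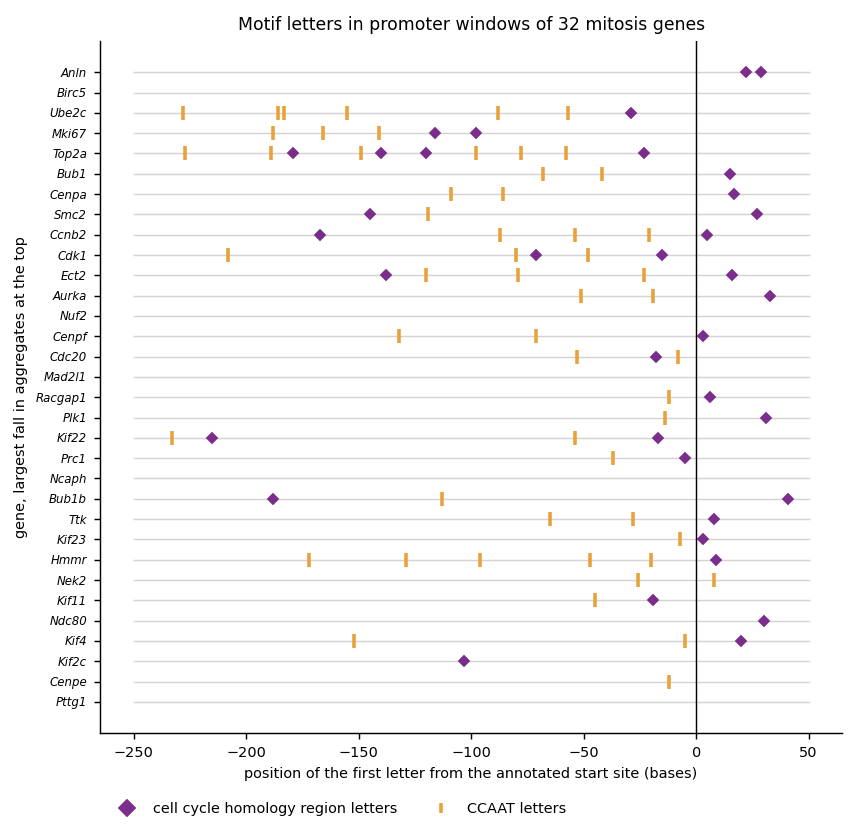
Position in bases, from the annotated start site at 0, of TTTGAA or TTCGAA (diamonds) and CCAAT (bars) in the promoter windows of 32 mitosis genes, ordered from the largest fall in aggregates at the top to the smallest at the bottom. In 23 of the 32 genes a diamond lies within 50 bases of the start site, and 5 genes have neither motif.

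All levels that follow are log2 of the deposited signal intensity. They compare arrays for 1 gene and not genes with each other, since probe sets differ in brightness. A difference of 1 is a 2-fold change. A gene is said to have risen or fallen where its limma p-value, adjusted by Benjamini-Hochberg over all 12393 genes, was under 0.05. Where 4 values are given for a culture they are line 9A1 replicates 1 and 2, then line 14B3 replicates 1 and 2. RNA came from whole cultures, so fewer dividing cells and less RNA per dividing cell cannot be told apart.

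The labelled cell type was checked on markers. Of the liver epithelium list all 8 genes were measured, with Krt8 between 13.60 and 13.93 on every array and albumin (Alb) at a mean of 8.08 in basal culture, 12.45 in aggregates and 12.54 in Matrigel. Of these 8, Alb, Afp, Ttr and Hnf4a rose in both cultures, and Foxa2 (-1.51, adjusted p = 0.00017) and Krt18 (-1.32, adjusted p = 2.1e-06) fell in aggregates. Of 10 haematopoietic markers 7 were measured, and their log2 summed intensity was 10.55 to 10.85 in basal culture, 11.02 to 12.19 in aggregates and 10.78 to 11.40 in Matrigel. Csf1r, Cd3e and Ptprc of that list rose in aggregates, by 1.48, 0.43 and 0.41, while the pan-leukocyte gene Ptprc stayed between 5.37 and 6.52 on all arrays. The 6 endothelial markers summed to 9.55 to 9.98 in basal culture, 9.76 to 9.97 in aggregates and 9.40 to 10.26 in Matrigel, and the 6 stellate markers to 10.07 to 10.23, 10.13 to 10.28 and 10.12 to 11.77. Reln of the stellate list rose in aggregates by 0.28. In Matrigel Acta2 (1.04) and Col1a1 (0.69) of the stellate list, Cdh5 (0.50) of the endothelial list and Csf1r (0.60) and Cd68 (0.46) of the haematopoietic list rose. These are means of both lines, and some differed between them. The change in 14B3 minus that in 9A1 was -1.90 for Acta2 and 1.10 for Cdh5 in Matrigel, of which that of Cdh5 did not pass. For Afp it was -3.29 in aggregates and -3.52 in Matrigel. For Csf1r it was -1.455 in aggregates and -0.92 in Matrigel, of which the second did not pass. The part of these markers in the results was not tested. As a guide to the floor of the arrays, 26 genes of unrelated tissues lay at or under 8.81 in 90% of their values. The mean of 36 of the 40 mitosis genes was at or under that level in aggregates, of 13 in Matrigel and of 4 (Cdc25c, Cenpe, Ndc80 and Nuf2) in basal culture, so falls that end there may be larger than measured. The guide is a rough one, since levels could still change below it, as for Nuf2, from a basal mean of 8.80 to 5.80 in aggregates. Some guide genes also changed: 1 of the 26 fell and 2 rose in aggregates, and as many did in Matrigel. Csn3 differed most there (1.43), and the highest value of a guide gene was 10.73. The median of the 26 guide genes was 7.63, and 20 of the 40 aggregate means were at or under it.

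Aggregates were compared with basal culture to see how the division program stood after 5 days without the conditions the labels call basal. All 40 genes fell in aggregates, against 23.4% of all genes measured. The median log2 difference was -2.52, against 0.10 for all genes. Of the 40, 36 fell by at least 1 log2 unit (background 8.54%) and 28 by at least 2 (background 1.85%). In 39 of the 40 every aggregate array lay below every basal array, against 21.8% of all genes, and Pttg1 was the exception. The 3 largest falls were those of Anln, Birc5 and Ube2c, at 17.4-fold, 16.4-fold and 16.4-fold, and the 3 smallest those of Pttg1, Cenpe and Kif2c, at 1.29-fold, 1.42-fold and 1.52-fold.

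Matrigel was compared with the same basal arrays. All 40 genes fell there too (background 14.3%), with a median log2 difference of -1.28 against -0.04 for all genes. The fall reached 1 log2 unit in 32 genes (background 2.06%) and 2 units in none. In 39 of 40 genes the Matrigel and basal arrays did not overlap (background 13.6%), and Pttg1 was again the exception. The 3 largest falls were -1.94 for Anln, -1.67 for Kif20a and -1.66 for Bub1, and the 3 smallest -0.47 for Cenpe, -0.53 for Pttg1 and -0.58 for Kif2c. Since the comparisons of aggregates and of Matrigel share the 4 basal arrays, they are not independent of each other.

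Matrigel and aggregates were compared directly. Of the 40 genes 33 were higher in Matrigel (background 13.9%) and 0 lower (background 12.7%), with a median log2 difference of 1.32 against -0.10 for all genes. Of the 33, 26 were higher by at least 1 log2 unit (background 3.11%), and for 32 genes the arrays of the 2 cultures did not overlap (background 11.8%). Across the whole array 1728 genes passed as higher and 1579 as lower, and with each array centred on its median 1549 and 2181 did. The 7 genes without a call were Nek2, Ndc80, Kif4, Foxm1, Kif2c, Cenpe and Pttg1. Aggregates had 5 days and most Matrigel arrays 10, so culture and days cannot be told apart in this comparison as a whole. On the 1 Matrigel array labelled 5 days, Matrigel_14B3 replicate 1, the median of the 40 genes was -1.38 from their basal means. On the aggregate_14B3 arrays, also of 5 days, it was -2.41 and -2.51. The part of days was not tested.

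**Figure D2:**
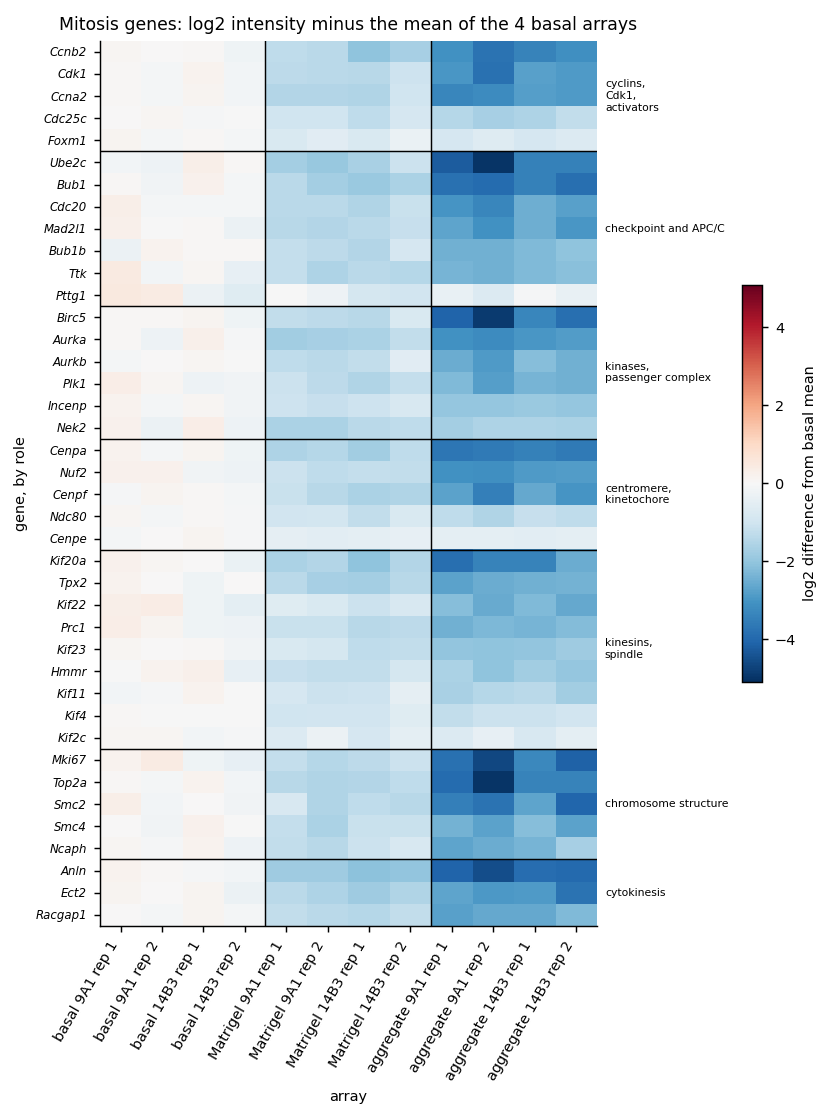
Log2 intensity of each of the 40 mitosis genes (rows, grouped by role) on each of the 12 arrays (columns), minus the gene's mean over the 4 basal arrays, in blue where lower and red where higher. The median over genes lies between -0.15 and 0.11 on the basal arrays, between -1.38 and -1.15 on the Matrigel arrays and between -2.77 and -2.41 on the aggregate arrays.

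The 5 cyclin and Cdk genes all fell in both cultures, with a median log2 difference of -3.07 in aggregates and -1.29 in Matrigel. Cdk1, the kinase that drives entry into mitosis (Entrez Gene 12534, probe set 1448314_at), read 12.01, 11.84, 12.14 and 11.82 on the basal arrays. It read 8.96, 8.14, 9.16 and 9.07 in aggregates and 10.64, 10.57, 10.55 and 10.89 in Matrigel. The 3 cultures did not overlap, and the log2 difference from basal was -3.12 (SE 0.16) in aggregates and -1.29 (SE 0.16) in Matrigel, with limma adjusted p of 2.60e-08 and 0.000119. Ccna2, the A-type cyclin of S and G2 phase, went from 11.38 ± 0.13 (SD, n = 4) in basal culture to 9.99 ± 0.25 (SD, n = 4) in Matrigel and 8.31 ± 0.25 (SD, n = 4) in aggregates. Ccnb2, a B-type cyclin and Cdk1 partner, fell most of the group in aggregates, 10.2-fold. Cdc25c, the phosphatase that activates Cdk1, fell with a log2 difference of -1.50 in aggregates and -1.04 in Matrigel, from a basal mean that was already within the floor guide. Its Matrigel minus aggregate difference of 0.45 (adjusted p = 0.0143) no longer passed without aggregate_9A1 replicate 2 (adjusted p = 0.062).

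Foxm1, a transcription factor that activates many of the other genes of the set, had one of the smaller differences of the set. Its basal arrays read 9.95, 9.72, 9.87 and 9.70, its aggregate arrays 8.94, 9.16, 8.95 and 9.12 and its Matrigel arrays 9.03, 9.24, 9.05 and 9.46. Both other cultures lay below every basal array and overlapped with each other. The log2 difference was -0.77 (SE 0.12) in aggregates (adjusted p = 0.000208) and -0.62 (SE 0.12) in Matrigel (adjusted p = 0.00233), and Matrigel minus aggregate was 0.15 (adjusted p = 0.349). With 2 other probe sets of Foxm1 the difference in aggregates was -1.49 and -1.06, and with the remaining one, 1437138_at, it was -0.08 (adjusted p = 0.53). Both the size of the difference and its call thus depended on the probe set.

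Of the 7 genes of the spindle checkpoint and the anaphase-promoting complex (APC/C), 6 fell at least 4-fold in aggregates. Bub1 and Bub1b, kinase-related proteins that hold the checkpoint at kinetochores, had log2 differences of -3.76 and -2.31 in aggregates. Mad2l1, which binds and blocks Cdc20 while chromosomes are unattached, fell with a log2 difference of -2.81, and the checkpoint kinase gene Ttk with one of -2.30. Cdc20, the activator of the APC/C, read 11.65, 11.22, 11.25 and 11.22 in basal culture, 9.96, 9.95, 9.82 and 10.18 in Matrigel and 8.33, 7.99, 8.84 and 8.59 in aggregates. Ube2c, the ubiquitin-conjugating enzyme of the APC/C (probe set 1452954_at), read 11.91, 11.80, 12.36 and 12.12 in basal culture, 10.31, 10.12, 10.41 and 10.95 in Matrigel and 7.82, 7.04, 8.58 and 8.61 in aggregates. For both genes the 3 cultures formed separate steps. For Ube2c the aggregate arrays spread over more than 1 log2 unit, with line 9A1 below line 14B3. The difference of Ube2c from basal was -4.03 (SE 0.17) in aggregates (limma adjusted p = 4.57e-09) and -1.60 (SE 0.17) in Matrigel (adjusted p = 2.81e-05).

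Pttg1, the securin that holds separase in check until anaphase (Entrez Gene 30939, probe set 1438390_s_at), had the smallest difference in aggregates. Its basal arrays read 12.57, 12.48, 11.79 and 11.47, its aggregate arrays 11.69, 11.39, 12.03 and 11.72 and its Matrigel arrays 12.07, 11.82, 11.19 and 11.10. The 3 cultures overlapped. In basal culture and in Matrigel both 9A1 arrays lay above both 14B3 arrays, and in aggregates both lay below them. The aggregate minus basal difference was -0.37 (SE 0.12) over both lines (limma adjusted p = 0.0238), made of -0.99 in 9A1 and 0.24 in 14B3. That call was lost without basal_9A1 replicate 1 (adjusted p = 0.076), basal_14B3 replicate 1 (0.11), aggregate_9A1 replicate 2 (0.10) or aggregate_14B3 replicate 2 (0.093). The Matrigel minus basal difference was -0.53 (SE 0.12) (adjusted p = 0.00568), made of -0.58 in 9A1 and -0.49 in 14B3. Without either Matrigel_14B3 array it was -0.13 (adjusted p = 0.64). That fit set the 9A1 Matrigel arrays against the basal arrays of both lines, so the line difference in basal culture enters it. In an additive fit of culture and line, without the interaction, Pttg1 passed neither in aggregates (adjusted p = 0.19) nor in Matrigel (0.098), and in 14B3 alone it did not pass in Matrigel (0.11). A Pearson correlation of 0.39 with the mean profile of the 40 genes over the 12 arrays, of which Pttg1 is one, was the lowest of the set, below Kif2c at 0.74 and Cenpe at 0.87.

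**Figure D3:**
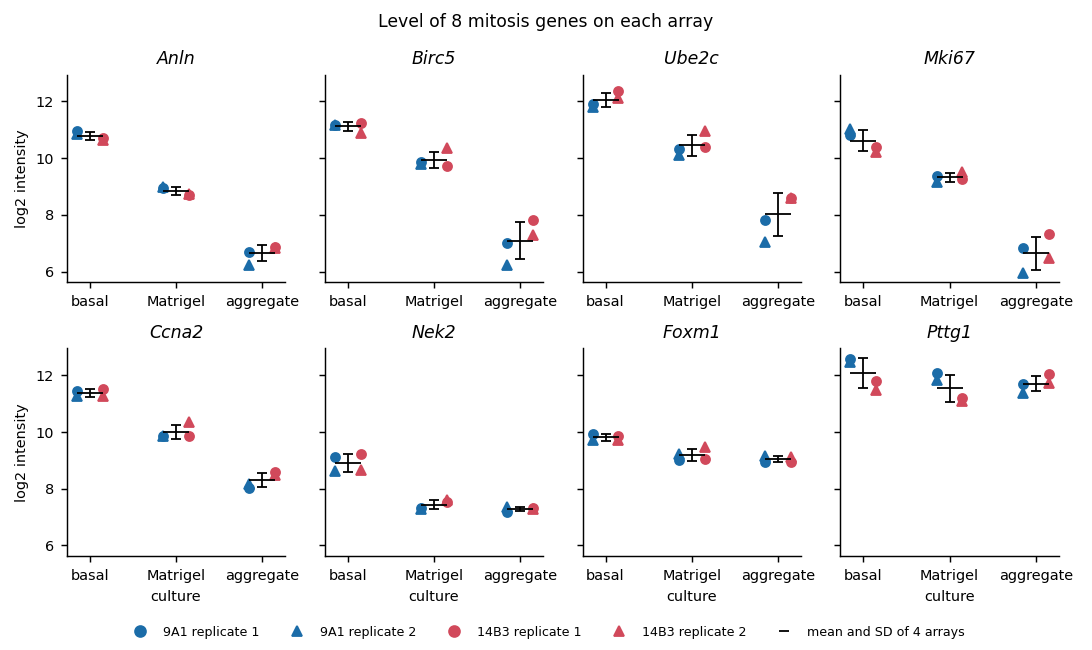
Log2 intensity of 8 mitosis genes on each array by culture, with line 9A1 in blue, line 14B3 in red, replicate 1 as circles, replicate 2 as triangles, and the mean and SD of the 4 arrays in black. Anln, Birc5, Ube2c, Mki67 and Ccna2 fall in separate steps from basal to Matrigel to aggregate, Nek2 and Foxm1 overlap between Matrigel and aggregates, and Pttg1 overlaps between all cultures.

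The 6 mitotic kinase and passenger complex genes all fell, with a median log2 difference of -2.50 in aggregates and -1.25 in Matrigel. Birc5, which encodes survivin, a subunit of the chromosomal passenger complex (probe set 1424278_a_at), read 11.17, 11.17, 11.25 and 10.89 in basal culture. In Matrigel it read 9.87, 9.78, 9.73 and 10.35 and in aggregates 7.02, 6.23, 7.80 and 7.28. All 3 cultures were apart, and the log2 difference was -4.04 (SE 0.19) in aggregates (adjusted p = 1.17e-08) but -1.19 (SE 0.19) in Matrigel (adjusted p = 0.000664). At 7.19-fold, its difference between Matrigel and aggregates was the largest of the set. The other passenger genes fell less in aggregates, with log2 differences of -2.52 for Aurkb, the kinase of the complex, and -1.94 for its scaffold Incenp. Aurka, the kinase of the spindle poles, and Plk1, which acts at centrosomes, kinetochores and the midbody, fell with log2 differences of -3.03 and -2.48.

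Nek2, a centrosomal kinase that acts in centrosome separation, was the gene of this group without a call between Matrigel and aggregates. It read 9.12, 8.61, 9.22 and 8.66 in basal culture, 7.31, 7.30, 7.54 and 7.62 in Matrigel and 7.18, 7.34, 7.31 and 7.30 in aggregates. The difference from basal was -1.62 (SE 0.14) in aggregates (adjusted p = 1.50e-06) and -1.46 (SE 0.14) in Matrigel (adjusted p = 1.35e-05). Matrigel minus aggregate was 0.16 (SE 0.14) (adjusted p = 0.394), and the arrays of those cultures overlapped.

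All 5 centromere and kinetochore genes fell in both cultures, with a wide range of sizes. Cenpa, the histone H3 variant of centromeres (probe set 1450842_a_at), read 10.73, 10.45, 10.68 and 10.32 in basal culture, 8.98, 9.08, 8.79 and 9.26 in Matrigel and 6.88, 6.92, 7.11 and 6.96 in aggregates, 11.9-fold below basal. Cenpf, a large kinetochore protein of late G2, fell with log2 differences of -2.96 and -1.43 in aggregates and Matrigel. Nuf2 and Ndc80 encode a pair of proteins of the microtubule-binding Ndc80 complex that bind each other. The log2 difference in aggregates was -3.00 for Nuf2 and -1.33 for Ndc80. Ndc80 was within the floor guide in every culture, at a basal mean of 7.72. Its Matrigel minus aggregate difference of 0.33 had an adjusted p of 0.0653, which became 0.047 with a replicate block within each line, 0.042 with a block shared by the lines and 0.016 without Matrigel_14B3 replicate 1. Cenpe, a kinesin-like motor of the kinetochore (probe set 1439040_at), was the dimmest of the set, at 4.74, 4.89, 4.98 and 4.80 in basal culture, 4.40, 4.33, 4.36 and 4.44 in Matrigel and 4.34, 4.34, 4.33 and 4.35 in aggregates. All 8 Matrigel and aggregate values lay between 4.33 and 4.44, near the lowest values on the arrays. Its differences of -0.51 (SE 0.09) and -0.47 (SE 0.09) passed the test (adjusted p = 0.000503 and 0.002), and on the log2(value + 50) scale the second did not (-0.15, adjusted p = 0.061).

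The 9 kinesin and spindle genes all fell, with a median log2 difference of -1.98 in aggregates and -1.05 in Matrigel. Kif20a, a kinesin of the central spindle, read 9.91, 9.80, 9.71 and 9.34 in basal culture, 8.08, 8.20, 7.63 and 8.18 in Matrigel and 5.83, 6.28, 6.28 and 7.14 in aggregates. Its fall in aggregates was 9.9-fold, with -3.80 in 9A1 and -2.81 in 14B3. Kif23, which with Racgap1 forms the centralspindlin complex, and Prc1, which bundles the central spindle, fell with log2 differences of -1.98 and -2.33. Tpx2, which activates Aurora A on spindle microtubules, fell with a log2 difference of -2.53, and Hmmr, a spindle assembly factor, with one of -1.85. Kif11, the motor that pushes spindle poles apart, fell with a log2 difference of -1.56, and Kif22, a chromosome-arm motor, with one of -2.40. Kif4, a chromosome-bound kinesin, was at 9.27 ± 0.04 (SD, n = 4) in basal culture, 8.38 ± 0.18 (SD, n = 4) in Matrigel and 8.16 ± 0.12 (SD, n = 4) in aggregates. Its lowest Matrigel array, at 8.26, lay under its highest aggregate array, at 8.30 (Matrigel minus aggregate 0.22, adjusted p = 0.123). Kif2c, a microtubule-depolymerising kinesin of the centromere, was -0.60 in aggregates and -0.58 in Matrigel by its brightest probe set.

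The 5 chromosome genes all fell, with a median log2 difference of -3.49 in aggregates and -1.27 in Matrigel, and all 5 were higher in Matrigel than in aggregates. Mki67, the Ki-67 protein that coats mitotic chromosomes and marks cycling cells (probe set 1426817_at), read 10.80, 11.03, 10.40 and 10.21 in basal culture. It read 9.38, 9.14, 9.26 and 9.49 in Matrigel and 6.82, 5.96, 7.31 and 6.47 in aggregates. The aggregate arrays ran from 5.96 to 7.31, yet the highest stayed below every Matrigel array, and the differences from basal were -3.97 (SE 0.21) and -1.29 (SE 0.21) (adjusted p = 2.32e-08 and 0.000593). Top2a, the topoisomerase that untangles sister DNA, went from 11.59 ± 0.15 (SD, n = 4) to 10.15 ± 0.10 (SD, n = 4) in Matrigel and 7.65 ± 0.74 (SD, n = 4) in aggregates. The condensin genes Smc2, Smc4 and Ncaph fell with log2 differences of -3.49, -2.52 and -2.32 in aggregates. Smc2 had the widest standard error of the set (0.25), with aggregate arrays at 6.63, 6.33, 7.42 and 6.07.

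The 3 cytokinesis genes fell with log2 differences of -4.12, -3.07 and -2.57 in aggregates and of -1.94, -1.56 and -1.34 in Matrigel, for Anln, Ect2 and Racgap1. Anln encodes anillin, a scaffold of the contractile ring (Entrez Gene 68743, probe set 1433543_at). Its arrays read 10.95, 10.84, 10.71 and 10.62 in basal culture, 8.96, 8.97, 8.68 and 8.75 in Matrigel and 6.68, 6.25, 6.88 and 6.83 in aggregates. The steps between cultures were far wider than the spread within them, and with limma the adjusted p was 1.44e-10 for aggregates, 1.21e-07 for Matrigel and 4.43e-07 for Matrigel against aggregates. Ect2, the exchange factor that switches on RhoA at the cleavage furrow, and Racgap1, its partner, were 2.83-fold and 2.34-fold higher in Matrigel than in aggregates.

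**Figure D4:**
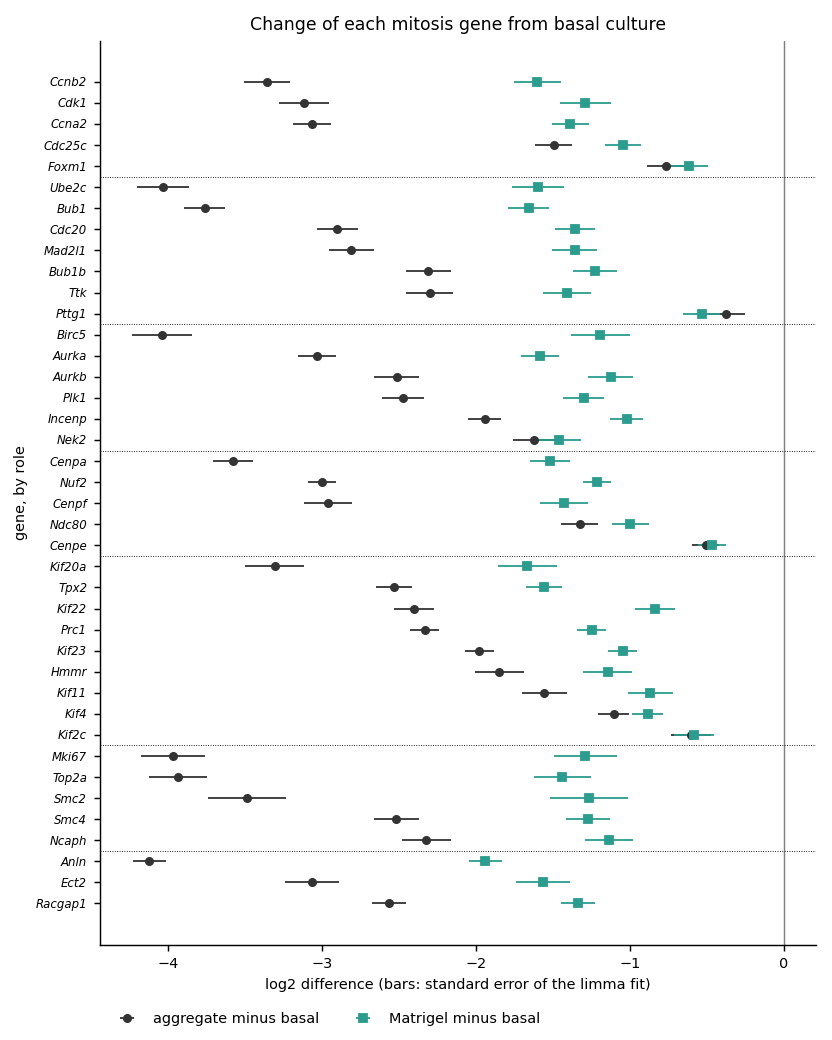
Log2 difference from basal culture of each mitosis gene in aggregates (circles) and Matrigel (squares), with the standard error of the limma fit, grouped by role. Aggregate values run from -4.12 (Anln) to -0.37 (Pttg1) and Matrigel values from -1.94 (Anln) to -0.47 (Cenpe), so the squares span a narrower range than the circles.

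The order basal, Matrigel, aggregate held for most genes. In 32 of the 40 genes every basal array lay above every Matrigel array and every Matrigel array above every aggregate array, against 6.29% of all genes. The means followed this order in 40 genes in line 9A1 and in 38 in line 14B3, against 24.9% and 24.7% of all genes. As a share of the log2 fall in aggregates, the Matrigel fall had a median of 50.8% over the 40 genes. The share was lowest for Birc5 (29.5%), Mki67 (32.5%) and Kif22 (34.8%). It was 90.1% for Nek2, 92.1% for Cenpe and 96.5% for Kif2c, genes whose means lay within the floor guide in both cultures. This was not particular to them, since the shares of the 13 genes within the guide in both cultures ran from 40.5% (Nuf2) to 96.5% (Kif2c). The Kif2c value is that of its brightest probe set. For Pttg1 the share was 143%, since its measured fall was larger in Matrigel than in aggregates. Both falls were measured from the same 4 basal arrays.

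The lines were compared over the 3 cultures. Ube2c was higher in 14B3 by 0.67 (SE 0.14) (limma adjusted p = 0.0132, background of genes higher 2.57%), and Pttg1 was lower, at -0.45 (SE 0.099) (adjusted p = 0.0183, background of genes lower 3.45%). For neither gene were the 6 arrays of 1 line apart from those of the other. With a replicate block within each line, Ube2c was at 0.44 and no longer passed (adjusted p = 0.24). Leaving out basal_9A1 replicate 1, basal_14B3 replicate 2, aggregate_9A1 replicate 1, aggregate_14B3 replicate 2 or Matrigel_9A1 replicate 1 took the Pttg1 call away, with adjusted p of 0.053 to 0.065. The other 38 genes did not pass, and their median difference with those 2 was 0.03. Counts of 1 higher and 1 lower in 40 are near the shares of all genes, 2.57% and 3.45%. Kif22 came next among the lower genes, at -0.34 (adjusted p = 0.0888, and 0.040 with a block shared by both lines), and Top2a among the higher ones, at 0.39 (adjusted p = 0.199, and 0.0051 without aggregate_9A1 replicate 1). Without 1 array each, Kif22 (aggregate_9A1 replicate 2, adjusted p = 0.048), Ect2 (aggregate_14B3 replicate 1, 0.044) and Aurkb (Matrigel_14B3 replicate 1, 0.048) also passed.

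In aggregates the means of 40 genes in 9A1 and of 39 in 14B3 lay below basal, with Pttg1 the exception in 14B3. The median of the 40 genes was -2.72 in 9A1 and -2.42 in 14B3 in aggregates, and -1.35 and -1.20 in Matrigel. Over all genes the medians in 9A1 and 14B3 were 0.11 and 0.06 in aggregates and -0.03 and -0.05 in Matrigel. The fall of the mitosis genes was larger in 9A1 for 35 in aggregates and for 30 in Matrigel. Mki67, for example, went from 10.80 and 11.03 to 6.82 and 5.96 in 9A1 and from 10.40 and 10.21 to 7.31 and 6.47 in 14B3. No share over all genes was computed for these counts, and genes that move together are not replicates of a line. Tested as a difference between responses with limma, 0 of the 40 genes passed for aggregates (background 0.468%) and 0 for Matrigel (background 0.686%). At an unadjusted p under 0.05 there were 11 for aggregates (background 6.63%) and 0 for Matrigel (background 6.77%). The closest was Pttg1 in aggregates, with a difference of 1.23 (SE 0.24) between lines and an adjusted p of 0.0597. With a replicate block within each line its adjusted p was 0.0093, and with a block shared by both lines 0.0037. Without aggregate_9A1 replicate 1 it passed (adjusted p = 0.044), as did Top2a at a difference of 1.53 (adjusted p = 0.016).

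The duplicates of a group were set side by side for the mitosis genes. Replicate 2 was the lower array for 29 of 40 genes in basal_9A1, 35 in basal_14B3, 26 in aggregate_9A1, 23 in aggregate_14B3 and 29 in Matrigel_9A1, with medians between -0.24 and -0.07. Of all genes 52.7%, 54.7%, 51.3%, 58.6% and 56.1% were higher in replicate 2 of these groups, in the same order. In Matrigel_14B3 replicate 2 was the higher array for 35 of 40, with a median of 0.31 and up to 9.03 against 8.37 for Aurkb. Of all genes 55.1% were higher in that array. Matrigel_14B3 is the group whose replicate 1 is labelled 5 days and replicate 2 10 days, and the part of days in this difference was not tested. Without either array of that group, the 9A1 Matrigel arrays were set against the basal arrays of both lines. The 40 genes kept a negative difference there, and 39 passed, against 1360 of all 12393 genes that passed as lower.

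Genes with several probe sets allowed a check within the arrays, in a fit of all 20380 single-gene probe sets. The 40 genes had 72 probe sets, with 51 of them on 19 genes that had more than 1. In aggregates 66 of the 72 fell and 0 rose (background 23.7% and 21.1%), in Matrigel 66 fell and 0 rose (14.2% and 12.3%), and 53 were higher in Matrigel than in aggregates (13.6%). For 13 of the 19 genes every probe set fell in aggregates. The probe sets that did not were 1452334_at of Cenpf, 1437138_at of Foxm1, 1450827_at of Kif23, 1432392_at of Kif2c, 1419620_at of Pttg1 and 1427724_at of Top2a. For Top2a the probe set used had a log2 difference of -3.94 from a mean level of 11.59 in basal culture, while 1427724_at stood at 6.52 there and had a difference of 0.19 (adjusted p = 0.27). For Bub1 the probe set used had -3.76 and 1438571_at had -0.54. For Kif2c the brightest probe set, 1454221_a_at, had a log2 difference of -0.60, and 1437611_x_at and 1449060_at had -2.85 and -1.68, and with its most variable probe set it was also higher in Matrigel than in aggregates (1.48, adjusted p = 2.27e-05).

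**Figure D5:**
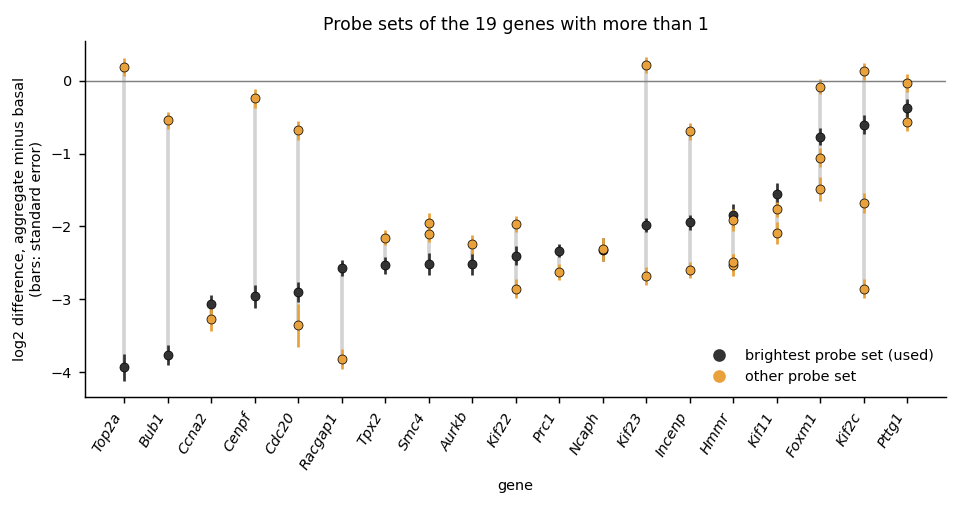
Log2 difference between aggregates and basal culture for each probe set of the 19 mitosis genes with more than 1, with its standard error, in black for the brightest probe set, which represents the gene, and in orange for the others. Probe sets of Ncaph, Aurkb and Prc1 lie close together, while those of Top2a, Bub1, Kif2c, Kif23, Cenpf and Cdc20 are spread over 2 log2 units or more.

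Other genes of the division pathway were taken from lists chosen by function. Of 55 other measured mitotic genes 50 fell and 1 rose in aggregates (median -1.49), 46 fell and 0 rose in Matrigel, and 33 were higher in Matrigel than in aggregates with 0 lower. Of all genes, 23.4% fell and 22.9% rose in aggregates, 14.3% fell and 14.1% rose in Matrigel, and Matrigel exceeded aggregates in 13.9% and lay below them in 12.7%. The counts of the next lists stand against these shares too. The largest falls in aggregates were those of Cep55 (-3.87), which recruits the abscission machinery to the midbody, Trip13 (-3.75), which takes apart checkpoint complexes, and Pbk (-3.39), a mitotic kinase. Zwint, a kinetochore protein, was the one that rose, by 0.40 (adjusted p = 0.030). The 13 measured core subunits of the APC/C, which are present throughout the cycle, had a median of -0.67: 8 fell, with Cdc16 (-1.46), Cdc23 (-1.45) and Anapc1 (-1.21) first, and Anapc13 rose by 0.50. The values for the APC/C partners Cdc20 and Ube2c were -2.90 and -4.03. Of 7 cohesin genes 5 fell in aggregates (median -0.90), with Smc3 at -1.61.

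Of 14 genes of the MuvB core, the E2F factors and the retinoblastoma family, 9 fell and 3 rose in aggregates (median -0.70), and a count of 3 in 14 is near the 22.9% of all genes that rose. Tfdp1, the E2F dimerisation partner, fell with a log2 difference of -1.74, Mybl2, the B-Myb factor that activates mitotic promoters, with one of -1.27, and Rbbp4, a MuvB subunit, with one of -1.22. The 3 that rose were Rbl2 (0.92), which encodes the p130 protein of the DREAM complex, the retinoblastoma gene Rb1 (0.92) and the MuvB subunit Lin37 (0.68). In Matrigel 9 of the 14 fell and 2 rose, again near the share of all genes that rose (14.1%), and against aggregates 5 were higher and 3 lower. Of 31 DNA replication genes 29 fell in aggregates (median -1.91), 28 fell in Matrigel and 26 were higher in Matrigel than in aggregates. Rrm2, the small subunit of ribonucleotide reductase, had a larger measured difference in aggregates (-4.72) than any of the 40 mitosis genes.

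Among the genes outside the set, those whose profile over the 12 arrays was most like the mean profile of the 40 were ranked by Pearson correlation. They were Dbf4 (0.994), Zwilch (0.994), Rrm1 (0.994), Kpna2 (0.993), Ube2t (0.993), Cenph (0.992), Rnf26 (0.991), Hddc2 (0.991), Haus1 (0.991) and Pole2 (0.991). Within the set Anln (0.997) and Cdc20 (0.995) were closest to the mean profile, which includes them. The 12 arrays share the difference between cultures, which sets most of such a value. Dbf4, the activating subunit of the Cdc7 kinase, was at -3.71 in aggregates and -1.84 in Matrigel, and Zwilch, a kinetochore protein, at -3.34 and -1.65.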

How the data were processed

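RNA of 12 one-colour Affymetrix 430A arrays was measured in 6 groups of line and culture with 2 arrays each. The deposited values are intensities of probe sets that the authors computed by RMA in R 2.3.1, per the submitters' processing notes. RMA usually ends in log2 values, but these ran from 14.4 to 27318, a linear range, and their log2 was used throughout. Genome build and probe mapping are not given in the sources used here. Precision is limited by the number of arrays. The labels call the replicates biological duplicates without saying how their cultures were separated. The p-values therefore rest on the spread between these arrays, part or all of which may be technical.

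Probe sets were named from GEO's platform annotation, which can be old. Of 22690 probe sets 20380 had 1 gene, 691 several, 1555 none and 64 were controls, and only the first kind was used. The brightest probe set stood for each of 12393 genes, and dim genes were kept. The fit used limma 3.58.1 (lmFit, eBayes) in R 4.3.3 on these log2 values, with a mean per group and 6 residual degrees of freedom. Contrasts averaged the lines or cultures, two-sided p-values were adjusted over all genes by Benjamini-Hochberg with a threshold of 0.05, and the fit was tested on simulated data. The aggregate and Matrigel contrasts share the basal arrays. Promoter windows and gene names came from RefSeq tables of GRCm38.p6. Python 3.11.15 with matplotlib 3.10.9 made the figures.

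The members were listed by function, and members, lists, tests and most alternatives were chosen with earlier results of these data known. Every member could be named, with full statistics for the 3 largest and 3 smallest differences per culture contrast. Up to 3 called genes per list and direction could be named, with called members for the lines and the 10 genes of most similar profile. Members described beyond that were chosen after their values were seen. Whether replicate numbers pair the arrays was checked on the data: replicate 2 minus replicate 1 correlated across genes between groups, with r over 0.1 in 15 of 15 pairs (0.10 to 0.64), so the value with a replicate block is given where it changes a call. Alternatives were leaving out each array, replicate blocks, array scalings, log2(value + 50), other probe set choices, a filter on dim genes, a test against 1 log2 unit, array weights, an additive fit and each line alone. Fitting every probe set and leaving out both Matrigel_14B3 arrays were added after seeing the data.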

Additional observations from a re-analysis of the deposited data

Results flagged for a closer look

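Each of the 40 genes was looked at in each culture, 120 groups of 4 arrays in all, for an array far from the other 3 of its culture. In 4 groups the gap to the nearest other array, as a share of the whole range, was above Dixon's critical value. The critical value is one that chance exceeds in about 1 in 20 independent groups of like arrays. Here the genes move together and each culture mixes both lines. The count of 4 in 120 therefore cannot be weighed against that rate.

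Ccna2, the A-type cyclin, read 10.36 in Matrigel_14B3 replicate 2 and 9.86 to 9.87 on the other Matrigel arrays (gap 0.967 of the range). Kif4, a chromosome-bound kinesin, read 8.66 in that array against 8.26 to 8.31 (0.887), and the passenger kinase gene Aurkb 9.03 against 8.27 to 8.37 (0.866). Cdc20, the APC/C activator, read 11.65 in basal_9A1 replicate 1 and 11.22 to 11.25 on the other basal arrays (0.922). All 4 were the highest array of their culture. The value of Matrigel_14B3 replicate 2 remained below every basal array for these 3 genes.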

How the results depend on the processing

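Members called were 39 to 40 in aggregates, 40 to 40 in Matrigel, 32 to 34 between Matrigel and aggregates, 1 to 3 between lines, 0 to 2 for the aggregate response and 0 to 0 for the Matrigel response when each array was left out in turn. In those fits 2530 to 2907 of all 12393 genes fell in aggregates, 1189 to 1812 fell in Matrigel and 1265 to 1793 were higher in Matrigel than in aggregates. Between lines 206 to 328 of all genes were higher in 14B3 and 287 to 438 lower. The medians of the members were -2.60 to -2.50, -1.36 to -1.23, 1.24 to 1.41, -0.02 to 0.08, 0.24 to 0.45 and -0.04 to 0.28, in the order of the member counts. The median in aggregates was -2.31 on the log2(value + 50) scale, -2.83 with the probe set of largest SD and -2.81 for the 31 genes above the median level. Tested against a change of 1 log2 unit, 34 genes passed in aggregates, 6 in Matrigel, 12 between Matrigel and aggregates and 0 between lines. Of all 12393 genes, 556 passed this test as lower in aggregates, 31 as lower in Matrigel and 77 as higher in Matrigel than in aggregates. Between lines 1 gene passed with a replicate block within each line and 1 in the additive fit. Of all 12393 genes, 177 passed as higher in 14B3 and 289 as lower with that block, and 216 and 262 in the additive fit. For the aggregate response 1 gene passed with either replicate block, and 1 with quantile normalization, the mean of all its probe sets, the probe set of largest SD or array weights. Of all genes, 45 passed as higher and 73 as lower with the block within each line, and 46 and 72 with the shared block. In the other fits just named, 19 to 29 passed as higher and 27 to 49 as lower. The replicate blocks changed no call beyond those named here and beside the results. In line 14B3 alone, Pttg1 in aggregates turned to 0.24 (adjusted p = 0.39) and was lower in Matrigel than in aggregates (-0.73, adjusted p = 0.026). In that line the Matrigel calls of Kif22 (adjusted p = 0.058), Foxm1 (0.085), Cenpe (0.066), Kif2c (0.070) and Pttg1 (0.11) and the Matrigel minus aggregate calls of Cdc25c (0.31) and Hmmr (0.054) were lost. In 9A1 alone Cenpe lost its Matrigel call (adjusted p = 0.057). The cause of these changes was not tested, except that fewer arrays or genes enter some fits. With 2 arrays a group, and with most aggregate means at or under the floor guide, the order of falls among the dimmest genes is not resolved.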
